A study of Mus musculus with 14 samples.

Results

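Myc, Max, the Mxd proteins, Mnt, Mga and Mlx are transcription factors that share one kind of DNA-binding and dimerisation domain and meet on the same short DNA element, the E-box CACGTG. They are described here in microglia, the resident macrophages of the brain, as 9 genes of the 24394 named genes in the table, chosen by name (Myc, Max, Mxd1, Mxd3, Mxd4, Mxi1, Mnt, Mga and Mlx). The group was picked because Myc ranked among the genes whose level with anti-CD22 lay furthest below that with IgG, so the Myc difference between the groups is a description and carries no test. The mice were C57BL/6 animals aged 18 months in which an osmotic pump had delivered an antibody into the cerebrospinal fluid for 1 month. In the anti-CD22 group that antibody blocked CD22, an inhibitory receptor for sialic acid, and in the IgG group it was a control immunoglobulin. Each group held 7 libraries, from about 20000 living CD11b+ CD45lo cells sorted from the hemisphere opposite the cannula. Whether libraries were made from single or pooled animals is not given in the labels, so the errors are those between samples.

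Myc forms dimers with Max, binds E-boxes and raises transcription of genes for growth, ribosome production and metabolism. Mxd1, Mxi1, Mxd3, Mxd4 and Mnt compete with Myc for Max and recruit Sin3 corepressor complexes to the same element, and Mga, a large protein with an added T-box domain, pairs with Max in a Polycomb-type repressor complex. Mlx is a second hub that pairs with the glucose-sensing factors Mlxip and Mlxipl and with some of the Mxd proteins. In macrophages Myc transcripts are short-lived and are induced early after growth factor or inflammatory stimulation.

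The deposited values are counts per gene divided by one size factor per library, called normalized counts here, with library totals from 27357939 to 29197481. Whole reads recovered for 13 libraries ranged from 20221836 to 38101421. All 8 microglia markers, Tmem119 and P2ry12 among them, were detected, with a summed level of 1725232 to 1855147 normalized counts in the anti-CD22 libraries and 1648684 to 1928803 in the IgG libraries. Markers of other cells varied between libraries of both groups. The 5 neutrophil markers found summed to between 0 and 7595 in anti-CD22 libraries and between 3.34 and 40365 in IgG libraries, the highest being IgG replicate 1. The 4 monocyte markers summed to 87.2 to 2313 with anti-CD22 and 137 to 9181 with IgG, and the 5 border-associated macrophage markers to 218 to 1219 with anti-CD22 and 67.2 to 919 with IgG. The B and T cell markers summed to 1133 to 1469 with anti-CD22 and 1208 to 1640 with IgG, nearly all of it Cd79b (means of 1276 and 1427), while Ms4a1, Cd3e and Cd3g were at 0 in every library. The endothelial markers summed to 858 to 1226 with anti-CD22 and 635 to 1201 with IgG, mostly Pecam1 (means of 1000 and 918), with Cldn5 at 0 in every library. The oligodendrocyte markers, Mbp and Mag among them, summed to 1420 to 2049 with anti-CD22 and 1614 to 2185 with IgG. The neuron and astrocyte markers reached at most 92.9 and 113 normalized counts in sum in any library. Long transcripts were relatively more abundant in several anti-CD22 libraries. The Spearman rho across genes between transcript length and a library's relative level ran from -0.269 to 0.327 in the anti-CD22 libraries and from -0.259 to -0.0029 in the IgG libraries, so each member is also given with a trend in length and GC content removed.

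Myc (chromosome 15: 61985391 to 61990374, GRCm38) had the largest log2 fold change of the 8 members tested, over all 14 libraries and the deposited values. The anti-CD22 libraries ranged from 1082 to 1651 normalized counts with a median of 1547, and the IgG libraries from 1553 to 2896 with a median of 2430. Of the anti-CD22 libraries 5 of 7 lay below every IgG library, and 6 of 7 IgG libraries lay above every anti-CD22 library. The groups overlapped only through IgG replicate 1, at 1553, which lay under anti-CD22 replicate 2 at 1651 and replicate 7 at 1619. The means were 1441 ± 212 normalized counts with anti-CD22 and 2282 ± 529 with IgG (SD, n = 7 each), a ratio of 0.631. The log2 fold change, on the scale of log2 of the normalized count plus 1, was -0.64 (SE 0.14, 95% interval -0.93 to -0.36). Removing the trend in length and GC content gave -0.56 (95% interval -0.83 to -0.29). It was -0.54 without anti-CD22 replicates 1, 2 and 3, where rho with length was highest, at 0.310, 0.286 and 0.327. Anti-CD22 replicate 7 had a trend in the opposite direction (rho -0.269), and without that library the Myc log2 fold change was -0.67. In bulk RNA, fewer cells with Myc transcripts and less Myc RNA per cell cannot be told apart. IgG replicates 1 and 7 had the highest neutrophil sums, at 40365 and 11760 normalized counts, and held the lowest and the highest Myc level of the IgG group, and IgG replicates 3, 4 and 5, with sums of 6.55, 3.34 and 6.30, held Myc at 2430, 2674 and 2718. Without IgG replicate 1 the Myc log2 fold change was -0.73. The part of neutrophil RNA in the Myc differences between libraries was not tested.

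**Figure D1:**
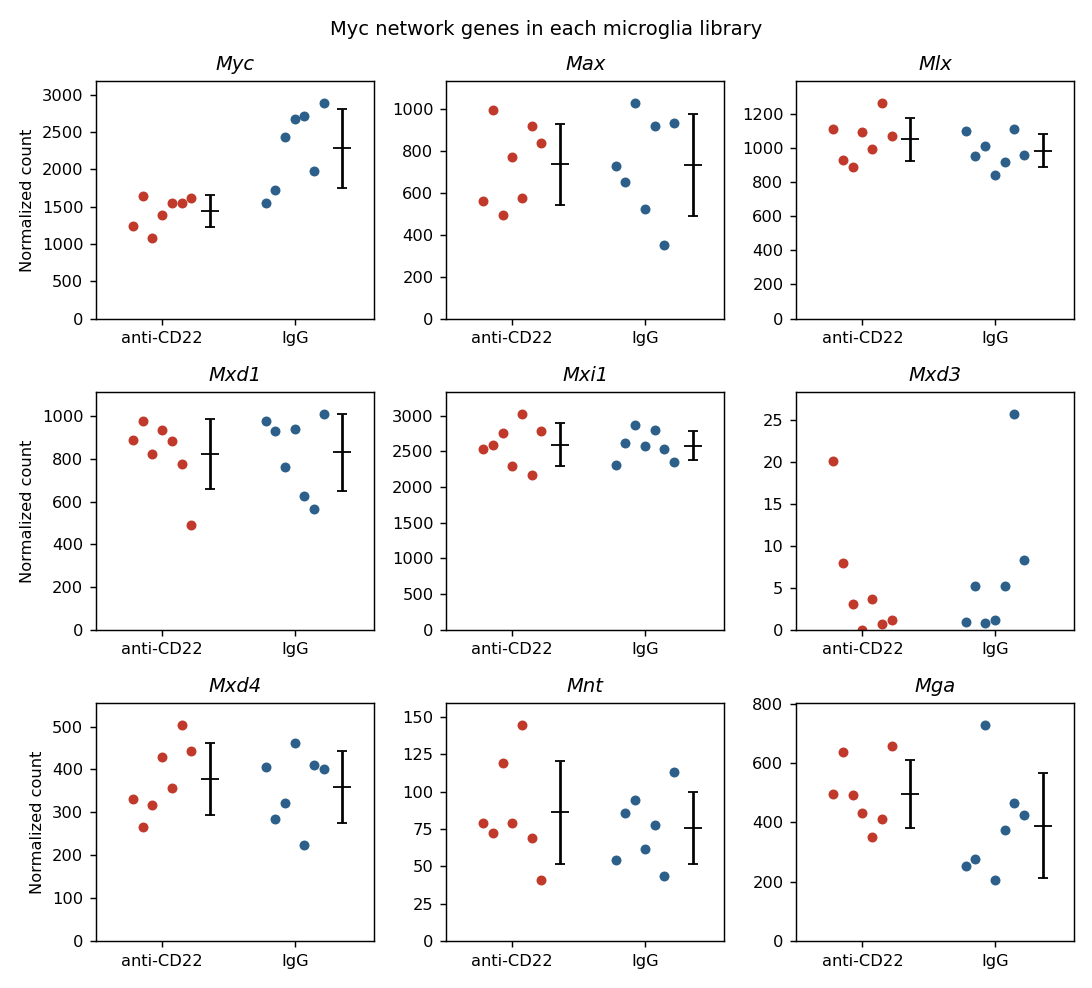
Normalized counts of the 9 genes in each library (vertical axis, linear from 0), anti-CD22 libraries in red and IgG libraries in blue, in replicate order; black bars give the mean and SD of 7 libraries, left out for Mxd3. Myc libraries sit from 1082 to 1651 with anti-CD22 and from 1553 to 2896 with IgG, while the ranges of the other 8 genes overlap widely.

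Of the 8 members with enough reads to test, limma called 0 at an adjusted p under 0.05, where 0.00859% of all 11646 tested genes were called. On the reads of 13 libraries the edgeR quasi-likelihood test called 0 members and 0% of genes. On the same reads DESeq2 called 1 member, Myc, and 0.301% of genes. DESeq2 gave no adjusted p for 4967 genes, Mxd4 and Mnt among them, and these could not be called. Without anti-CD22 replicate 7 limma called 1 member, again Myc. At an unadjusted p under 0.05 by limma 1 of the 8, Myc, was lower and 0 were higher, against 5.95% of tested genes lower and 6.8% higher. Since Myc chose the group, nothing is read from its place in these counts. The 8 other members had a median log2 fold change of 0.06 as a group, of which 7 were tested, beside a median of 0.0011 over all tested genes.

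Max, the shared partner without which Myc and the Mxd proteins do not bind DNA well, had nearly equal means. Its normalized count averaged 736 ± 193 with anti-CD22 and 733 ± 244 with IgG (SD, n = 7 each). The libraries ranged from 496 to 995 around a median of 769 with anti-CD22 and from 353 to 1028 around a median of 727 with IgG, and the ranges overlapped almost fully. The log2 fold change was 0.04 (SE 0.21, 95% interval -0.40 to 0.49, limma adjusted p = 0.953), so a change of the size seen for Myc lies outside the interval in the lower direction. Max varied more between libraries of the same group than most genes. The SD of its log2 level within groups was 0.47, and 97.4% of the 3945 tested genes with a mean within a factor of 2 of its own had a smaller one.

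Mlx, the partner of the glucose-sensing factors, was among the steadier members. It ranged from 888 to 1265 normalized counts with anti-CD22, with a median of 1068, and from 839 to 1111 with IgG, with a median of 961. The log2 fold change was 0.09 (95% interval -0.10 to 0.28, limma adjusted p = 0.699), or 0.17 (95% interval -0.02 to 0.35) once that trend was removed. The SD of its log2 level within groups was 0.16, and 21.7% of genes of like level had a smaller one.

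Mxi1, an Mxd repressor also called Mxd2, was the most abundant of the repressors and gave the tightest estimate of the 9 genes. It ranged from 2172 to 3028 normalized counts with anti-CD22 around a median of 2594, and from 2311 to 2874 with IgG around a median of 2580. The log2 fold change was 0.0035 (SE 0.078, 95% interval -0.16 to 0.17, limma adjusted p = 0.991), or -0.08 (95% interval -0.24 to 0.09) with the trend removed.

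Mxd1, a repressor that is raised when myeloid cells mature, ranged from 488 to 977 normalized counts with anti-CD22 around a median of 882, and from 563 to 1011 with IgG around a median of 932. The lowest library of all was anti-CD22 replicate 7, which stood apart from the other 6 of its group at 774 or more. The log2 fold change was -0.0089 (95% interval -0.34 to 0.32, limma adjusted p = 0.988), and 0.11 without that library. Mxd1 is well expressed in neutrophils, and the IgG libraries with the highest neutrophil sums, replicates 1 and 7, had 975 and 1011 normalized counts of Mxd1. Anti-CD22 replicates 4 and 2, with the highest sums of their group (7595 and 7105), had 934 and 977. Anti-CD22 replicates 5, 1 and 6, with the lowest (0, 6.41 and 7.33), had 882, 887 and 774. IgG replicates 3, 4 and 5, with the lowest sums of the IgG group, had 763, 939 and 625. The libraries between did not follow 1 direction. Anti-CD22 replicates 3 and 7, with sums of 2695 and 2096, had 822 and 488. IgG replicates 2 and 6, with sums of 4826 and 1064, had 932 and 563. The part of neutrophil RNA in the Mxd1 differences between libraries was not tested.

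Mxd4 and Mnt were lower in level than the members described above, and Mnt had the widest interval of the members tested. Mxd4, an Mxd repressor found in quiescent and differentiated cells, ranged from 265 to 504 normalized counts with anti-CD22 and from 225 to 461 with IgG, with medians of 357 and 400. The means stood in the other order, at 378 ± 83.5 with anti-CD22 and 358 ± 83.7 with IgG (SD, n = 7 each), and the log2 fold change was 0.08 (95% interval -0.28 to 0.44, limma adjusted p = 0.869). Mnt, the broadly expressed antagonist of Myc, ranged from 41.0 to 145 with anti-CD22 and from 43.7 to 113 with IgG, with medians of 78.7 and 77.7. Its log2 fold change was 0.15 (95% interval -0.45 to 0.76, limma adjusted p = 0.853), an interval that would hold a change as large as that of Myc in the higher direction.

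Mga followed Myc in size of log2 fold change among the members tested, in the higher direction. It ranged from 349 to 658 normalized counts with anti-CD22 around a median of 492, and from 204 to 728 with IgG around a median of 375. The anti-CD22 libraries exceeded the IgG median in 6 of 7 cases, while the highest library of all was IgG replicate 3. The means were 496 ± 115 with anti-CD22 and 389 ± 177 with IgG (SD, n = 7 each). The log2 fold change of 0.44 (SE 0.23, 95% interval -0.04 to 0.91, limma adjusted p = 0.427) did not pass. Mga has the longest transcript of the group at 13931 bases, and with the length and GC trend removed its log2 fold change was 0.21 (95% interval -0.25 to 0.68). Within groups the SD of its log2 level was 0.50, and 94.5% of genes of like level had a smaller one.

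Mxd3, the member tied to S phase of the cell cycle, was close to the limit of detection and was not tested, with a mean of 6 normalized counts over all libraries. It ranged from 0 to 20.1 with anti-CD22, with a median of 3.03, and from 0.819 to 25.7 with IgG, with a median of 5.24. In whole reads the range was 0 to 22 over the 6 anti-CD22 libraries where reads were recovered and 1 to 23 over the 7 IgG libraries. Anti-CD22 replicate 1 and IgG replicate 6 stood apart from their groups, at 20.1 and 25.7 normalized counts. The nearest in the same groups were at 7.95 and 8.28. Its log2 fold change of -0.35 carries no test and moved widely, to 0.06 without IgG replicate 6 and to -1.28 without anti-CD22 replicates 1, 2 and 3.

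**Figure D2:**
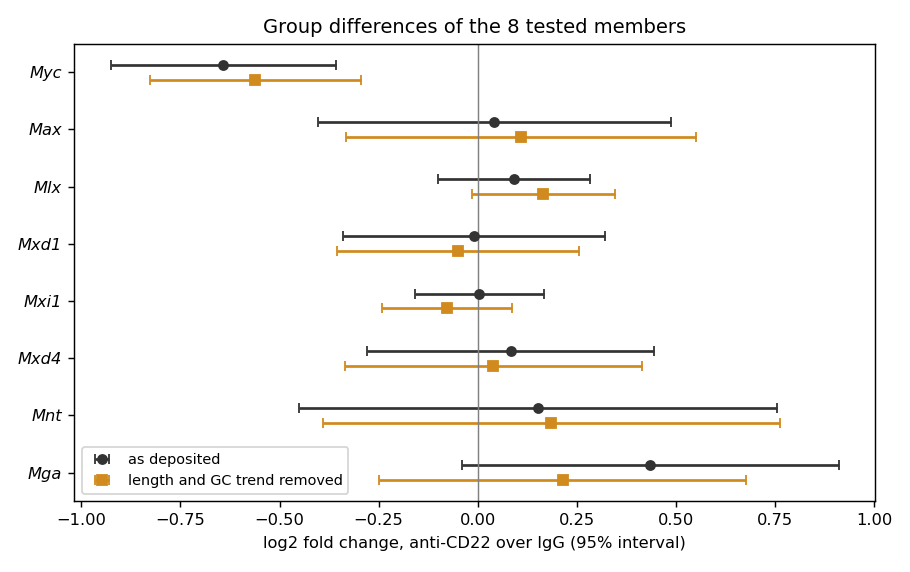
Log2 fold change of anti-CD22 over IgG (horizontal axis) with its 95% interval for the 8 members tested, from the deposited values (circles) and with the length and GC trend removed in each library (squares). Myc lies at -0.64 and -0.56, and the intervals of the other 7 genes include 0 in both versions.

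Several of these genes lie beside or across others. By GENCODE vM21, exons of Mxd3, Mxd4, Mxi1 and Mlx share bases with an exon of Prelid1, Gm42846, Gm10197 and Psmc3ip on the opposite strand, in that order. The sources used here do not state that reads were assigned by strand, so reads of these pairs may be mixed. Exons of Myc, Max, Mxd1, Mnt and Mga shared no bases with another annotated gene.

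To compare the genes with one another, levels were divided by the length of the longest annotated transcript and are given as normalized counts per kilobase. Myc came first at 616 ± 90.5 with anti-CD22 and 976 ± 226 with IgG. Mlx followed at 535 ± 64.2 and 501 ± 49.2, Mxi1 at 515 ± 58.8 and 513 ± 41.3, and Max at 379 ± 99.5 and 377 ± 125, for anti-CD22 and then IgG (SD, n = 7 each). Mxd1 stood at 176 and 178, Mxd4 at 81.6 and 77.4, Mga at 35.6 and 27.9, Mnt at 18.8 and 16.5, and Mxd3 at 3.01 and 3.88. Within libraries, Myc exceeded Mlx in 13 of 14, Max exceeded Mxd1 in 14 of 14 and Mxd1 exceeded Mxd4 in 14 of 14. Mlx and Mxi1 could not be ordered, since Mlx was the higher in 6 of 14 libraries. The order at the top depended on the length used. With the median length over a gene's annotated transcripts Mxi1 came first (1805 with anti-CD22 and 1795 with IgG), Mlx next and then Myc (804 and 1273), and Mga passed Mxd4. With that length Max (978 and 974) lay above Myc in the anti-CD22 mean and below it in the IgG mean.

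**Figure D3:**
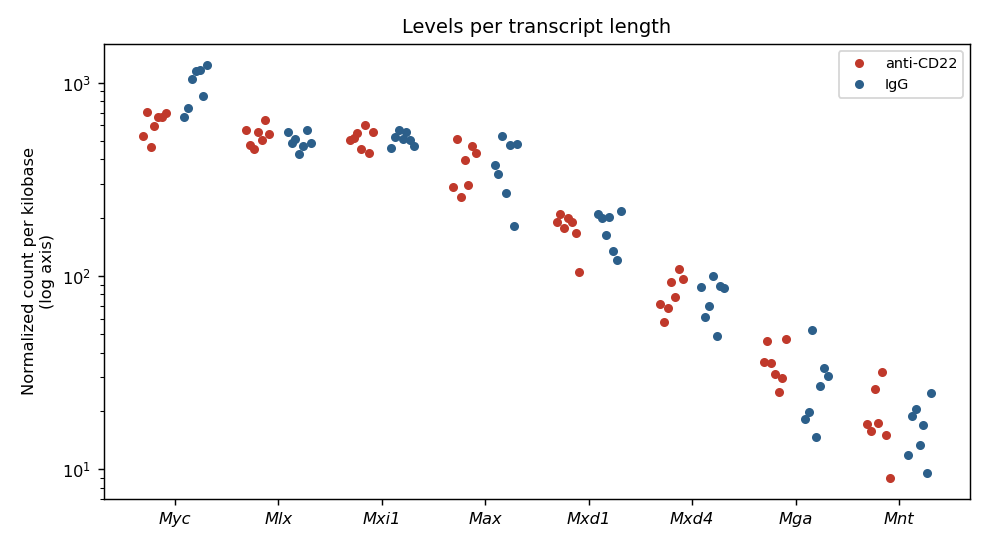
Normalized count per kilobase of the longest annotated transcript (vertical log axis) in each library for 8 genes, in order of the mean level, with anti-CD22 in red left of IgG in blue; Mxd3, which has a library at 0, is left out. Myc, Mlx, Mxi1 and Max form the upper group, and Mga and Mnt lie lowest, with means of 35.6 and 18.8 with anti-CD22 and 27.9 and 16.5 with IgG.

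The balance of Max partners is described per kilobase over Myc, Mxd1, Mxd3, Mxd4, Mxi1, Mnt and Mga, first with the longest transcript of each gene. Myc made up 35.1% to 46.8% of their summed level in the anti-CD22 libraries, with a median of 42.9%, and 45.8% to 59.9% in the IgG libraries, with a median of 54.2%. This share rests on Myc and is given without a test. The partners other than Myc summed to 831 ± 54.8 per kilobase with anti-CD22 and 816 ± 38.1 with IgG (SD, n = 7 each), with ranges of 751 to 926 and 770 to 877 that overlapped. The ratio of Myc to Max had a median of 1.61 with anti-CD22 and 2.46 with IgG, with ranges of 1.38 to 2.23 and 1.78 to 4.68. These levels depend on the length used, and values with the median transcript length were added after the data were seen. With that length Myc made up 17.2% to 26.2% of the sum with anti-CD22 (median 23.1%) and 25.7% to 37.2% with IgG (median 30.9%). The ratio of Myc to Max then had a median of 0.812 with anti-CD22 and 1.24 with IgG. By either length the share had the lower median with anti-CD22, and the ranges of the groups overlapped. For the ratio of Myc to Max the choice of length multiplies every library by the same factor. Its order and overlap between the groups therefore could not change with the length.

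The E-box that these proteins bind is also present in the promoters of some of their own genes, and those sites are shown because they place 4 members among genes with a binding element of the network. RefSeq promoter windows (GRCm38.p6, from 250 bases before to 50 bases after the annotated start) matched 8 of the 9 members, all but Myc. The motif CACGTG, which reads the same on both strands, was found in windows of 4 of these 8 genes (Max, Mlx, Mnt and Mxd4), and in 8.09% of all 27025 genes with a window. In the 60-base stretches that follow, on the strand of each gene and with the motif in capitals, it starts 3 bases before the annotated start of Max (chr12:76962219-76962278, minus strand), 40 before that of Mlx (chr11:101087223-101087282, plus strand), 123 before that of Mnt (chr11:74830774-74830833, plus strand) and 219 before that of Mxd4 (chr5:34187897-34187956, minus strand).
Max: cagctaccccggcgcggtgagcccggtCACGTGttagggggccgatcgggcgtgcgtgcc
Mlx: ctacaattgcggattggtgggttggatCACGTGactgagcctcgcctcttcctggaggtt
Mnt: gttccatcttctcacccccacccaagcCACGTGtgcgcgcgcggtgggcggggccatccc
Mxd4: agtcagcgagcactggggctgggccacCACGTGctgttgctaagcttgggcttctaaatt
The log2 fold changes of these 4 genes were 0.04 for Max, 0.09 for Mlx, 0.15 for Mnt and 0.08 for Mxd4. All 4 were above 0, as were 5851 of all 11646 tested genes, and none of the 4 passed the limma test. Of the tested members with a window and no motif, Mga was at 0.44, Mxi1 at 0.0035 and Mxd1 at -0.0089. Over all tested genes with a window, the 1076 with the motif had a median log2 fold change of -0.0046 and the 7885 without it one of 0.0015.

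Genes around the network were compared as lists, described by their counts beside all tested genes, of which 49.8% were lower with anti-CD22. Genes that Myc is commonly said to activate, in ribosome production, nucleotide synthesis and metabolism, had a median log2 fold change of -0.04. Of 50 tested, 31 were lower and 19 higher, and limma called 0. Single genes ran from -0.70 for the cell cycle factor E2f2 to 0.70 for the pyrimidine synthesis gene Cad, the extremes of the list, with limma adjusted p of 0.468 and 0.349. At an unadjusted p under 0.05, 6 were lower and 2 higher. Without the trend in length and GC content 27 were lower, and the median was -0.0097. The smallest p was that of Utp20, a factor of small ribosomal subunit assembly, at 218 ± 33.3 normalized counts with anti-CD22 and 161 ± 21.8 with IgG (SD, n = 7 each; log2 fold change 0.43, limma adjusted p = 0.289). The next smallest p were those of the mitochondrial scaffold gene Phb, the tRNA synthetase scaffold gene Aimp2 and the lactate dehydrogenase gene Ldha, at log2 fold changes of -0.23, -0.24 and -0.12 and with limma adjusted p from 0.294 for Phb to 0.323 for Ldha. Among these targets the 14 with a promoter E-box had a median of -0.04 in log2 fold change, and so had the 29 without one.

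The other lists of the network, cofactors and targets held 0 genes called by limma or edgeR, and 1 called by DESeq2 in the list of Mlx targets. At an unadjusted p under 0.05 by limma Mycl and Klf10 were in the lower direction and Txnip in the higher. Of 5 further genes of the same DNA-binding family tested, Mycl, Mlxip, Mlxipl, Usf1 and Usf2, 4 were lower (median of -0.08 in log2 fold change). With the trend removed 2 were lower. Usf1 and Usf2, which are not members of the group described here, were at -0.08 and -0.11. Mycl, a Myc paralogue, averaged 827 ± 127 normalized counts with anti-CD22 and 984 ± 86.7 with IgG (SD, n = 7 each; log2 fold change -0.26, limma adjusted p = 0.328). The Mlx partners Mlxip and Mlxipl had log2 fold changes of 0.19 and -0.08. Cofactors of Myc and of the Mxd repressors were split evenly, with 8 of 16 lower and a median of -0.02. Among them the log2 fold changes were 0.21 for the coactivator scaffold Trrap, 0.20 for the corepressor scaffold Sin3a, -0.12 for its paralogue Sin3b and -0.10 for the Myc-interacting gene Bin1.

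Of 10 genes that act on the stability of the Myc protein 3 were lower and 7 higher. The median of 0.12 in log2 fold change became -0.0070 with the trend removed. The ubiquitin ligase subunit Skp2 and the deubiquitinase Usp28, both at a log2 fold change of 0.28, and the scaffold Axin1, at 0.17, had limma adjusted p from 0.475 to 0.501. Genes that Myc represses through Zbtb17 had 3 of 4 lower, led by the cell cycle inhibitor Cdkn1a at a log2 fold change of -0.18 (limma adjusted p = 0.658), and 1 of 4 lower with the trend removed.

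Genes induced by Mlx with Mlxip or Mlxipl diverged, with 2 of 4 lower and Pklr at 0 in every library. Klf10, also an early response gene, averaged 896 ± 107 normalized counts with anti-CD22 and 1338 ± 285 with IgG (SD, n = 7 each; log2 fold change -0.56, limma adjusted p = 0.163). Txnip, an inhibitor of thioredoxin and of glucose uptake, averaged 13884 ± 616 with anti-CD22 and 12457 ± 1264 with IgG (log2 fold change 0.16, limma adjusted p = 0.305), and all 7 libraries with anti-CD22 exceeded the median of the IgG group.

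**Figure D4:**
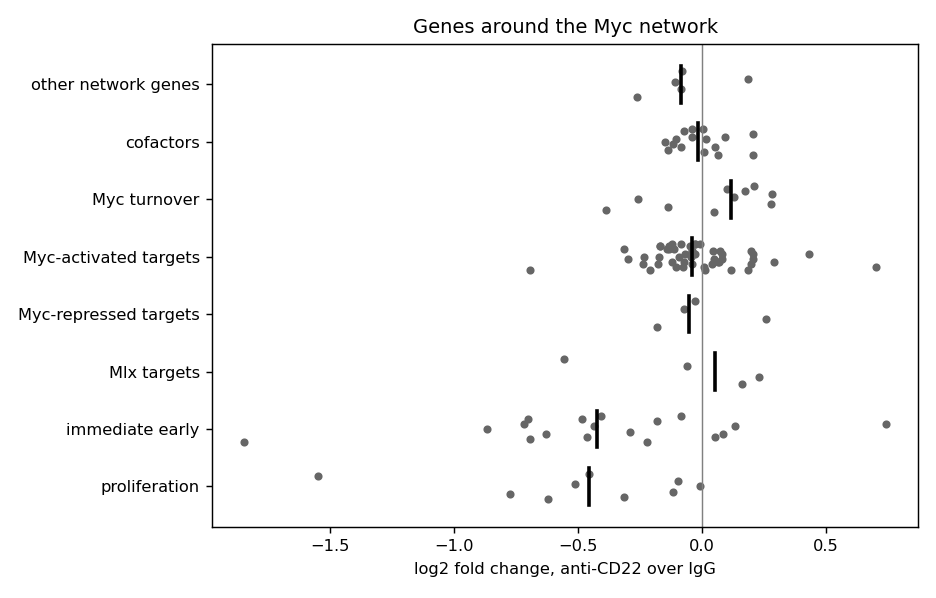
Log2 fold change of anti-CD22 over IgG (horizontal axis) for each tested gene of 8 lists, 1 point per gene, with a black bar at the list median. Myc targets centre near 0 with a median of -0.04, while immediate early genes have a median of -0.42 and proliferation genes one of -0.46.

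Myc belongs to the early response genes, so that program was set beside it. Of 18 immediate early genes tested, Myc not among them, 14 were lower, 1 (Ier2) was called, and the median log2 fold change was -0.42, or -0.22 with the trend removed, -0.23 without anti-CD22 replicates 1, 2 and 3, and -0.30 by edgeR and by DESeq2. DESeq2 called 3 of them and edgeR 0. Ier2 stood at 326 ± 45.5 normalized counts with anti-CD22 and 598 ± 103 with IgG (SD, n = 7 each; log2 fold change -0.87, limma adjusted p = 0.0227). Its call was lost with the trend removed, where the log2 fold change was -0.70, and also without IgG replicate 2, 3, 4, 5 or 7 or anti-CD22 replicate 1, 3 or 6. After Ier2 the smallest p were those of Jun, an AP-1 subunit, at a log2 fold change of -0.63, the JAK-STAT inhibitor Socs3 at -0.49 and Ier3 at -0.69. The mean log2 level of the 18 genes, centred per gene, was -0.20 ± 0.23 with anti-CD22 and 0.20 ± 0.12 with IgG (SD, n = 7 each). Within groups the level of Myc was not shown to follow this mean. In the anti-CD22 group Pearson's r was 0.54 (exact permutation p = 0.227, adjusted p = 0.707, two-sided, n = 7) and Spearman's rho 0.43 (exact permutation p = 0.354, adjusted p = 0.707). In the IgG group r was -0.12 (exact permutation p = 0.792, adjusted p = 0.792, two-sided, n = 7) and rho was -0.14 (exact permutation p = 0.783, adjusted p = 0.792). Without the 2 libraries farthest from the median of the list r was 0.39 with anti-CD22 and 0.18 with IgG. The 2 relations were each measured by r and by rho, and the permutation p of both measures in both groups were adjusted together. The part of cell handling in the Myc difference was not tested.

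**Figure D5:**
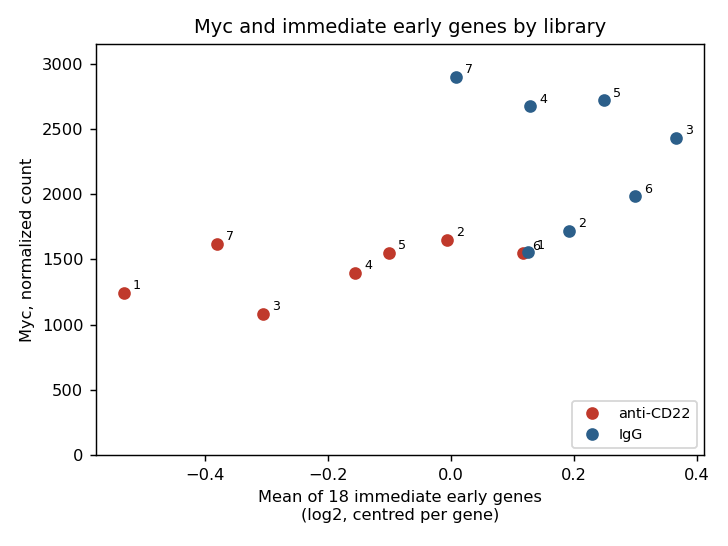
Normalized count of Myc (vertical axis) against the mean of 18 immediate early genes (horizontal axis, log2 centred per gene) in each library, with anti-CD22 in red, IgG in blue and replicate numbers beside the points. Anti-CD22 libraries lie mostly lower on both axes, and anti-CD22 replicate 6 and IgG replicate 1 nearly coincide. Within the IgG group Myc spans 1553 to 2896 with no visible relation to the list (r = -0.12).

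Proliferation genes, of interest because Myc drives and the Mxd proteins oppose cell cycle entry, were lower in 9 of 9 tested and 0 were called by limma, edgeR or DESeq2, with 0 also at an unadjusted p under 0.05 by limma. Their median was -0.46 in log2 fold change. Without anti-CD22 replicates 1, 2 and 3 the median was -0.23. It ran from -0.66 to -0.28 when single libraries were left out, at -0.28 when anti-CD22 replicate 3 was left out and at -0.30 when either anti-CD22 replicate 4 or IgG replicate 6 was, and it was -0.22 by edgeR. Several of these genes were scarce and varied widely between libraries. Cdc20, an activator of the anaphase-promoting complex, had 89.5 ± 54.0 normalized counts with anti-CD22 and 141 ± 56.5 with IgG (SD, n = 7 each; log2 fold change -0.77, limma adjusted p = 0.400). The replication licensing gene Mcm2, more abundant, had 425 ± 38.0 with anti-CD22 and 561 ± 193 with IgG (log2 fold change -0.31, limma adjusted p = 0.5002). The highest list mean of all libraries was in IgG replicate 6, the library with the most Mxd3.

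The genes whose pattern was most like that of Myc were sought over the 14 libraries after each group's mean was subtracted, among 9427 genes with a mean of at least 100 normalized counts. The highest Pearson r were those of Akap7 (0.93), AW146154 (0.89), Smap2 (0.84), Gusb (0.82) and Apeh (0.81). The lowest were those of Sirt1 (-0.89), Ythdf2 (-0.85) and Kdm5d (-0.82). Their own log2 fold changes lay between -0.08 for Smap2 and 0.25 for Sirt1. These values are the extremes of many genes in few libraries that share depth and length trends, and they are given as a description. Within the network, Max came nearest to Myc at an r of 0.49, with 6.43% of genes higher, and the r of Mga was 0.25. Those of Mxi1 (0.15), Mxd4 (0.04), Mxd1 (-0.15) and Mlx (-0.22) were smaller.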

How the data were processed

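RNA sequencing measured 14 libraries, 7 per group, grouped by sample titles. Per the submitters' processing notes, the authors used bcl2fastq, STAR with mm10 and DESeq2, and, per the labels, 100 bp paired reads and SummarizedExperiment counts; tool versions, annotation and strand settings were not stated there. Deposited values are normalized counts, a signal obtained by dividing each library's counts by 1 size factor. A total of 27 of 24421 entries, whose names had become dates, were left out (at most 0.149% of a library). Members and lists were chosen with earlier results of these data known.

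The main test was limma on log2(normalized count + 1) over 11646 genes with a mean of at least 10, with a mean-variance trend, p adjusted by Benjamini-Hochberg over those genes and a threshold of 0.05. All 9 members were named, and from each list the 4 genes with the smallest p, except that some items are not reported here. Values were whole multiples of 1 step within 0.1 reads, giving whole reads in 13 libraries. In anti-CD22 replicate 3 the step, 1.01, is too close to 1, so edgeR and DESeq2 left it out, and DESeq2 gave no adjusted p for 4967 genes. No 2 replicates agreed within counting error (lowest chi-square per gene 18.1). Lengths and GC content came from GENCODE vM21 (GRCm38), and the trend was removed by natural splines. The model was tested on simulated data. Reads carried no molecular identifiers, so they may repeat molecules. Tools were R 4.3.3, limma 3.58.1, edgeR 4.0.16, DESeq2 1.42.0, Python 3.11.15 and scipy 1.17.1.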

Additional observations from a re-analysis of the deposited data

Results flagged for a closer look

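In 3 of 22 checks of a group of 7 libraries, 1 library stood apart. Its gap to the nearest neighbour was above Dixon's 95% critical value. For normally distributed values chance flags about 1 in 20 such groups. The members were checked on untransformed counts, and the rate is not known for counts as low as those of Mxd3. Mxd1 was at 488 normalized counts in anti-CD22 replicate 7, with a gap of 0.584 of the range. Mxd3 was at 20.1 normalized counts in anti-CD22 replicate 1 and at 25.7 in IgG replicate 6, with gaps of 0.605 and 0.701.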

How the results depend on the processing

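The Myc log2 fold change stayed between -0.71 and -0.54 over the alternatives that kept or regrouped libraries in bulk, and between -0.73 and -0.58 when each library was left out in turn. The count of members past the threshold was 0 in most settings (range 0 to 1 over single libraries left out). It was 1, Myc, only with array weights, with DESeq2 and without anti-CD22 replicate 7. Nothing is read from these calls, because Myc chose the group. The count of genes past the threshold, 1 in the main test, was 0 without a mean-variance trend, with the length and GC trend removed, without anti-CD22 replicates 1, 2 and 3 and by edgeR, 8 with array weights, 4 with the length slope as a covariate or at a threshold of 0.10, and 35 by DESeq2. It ran from 0 to 43 over single libraries left out, 43 being without anti-CD22 replicate 7. The replicate block gave 2 genes and 0 members; deviations of same-numbered libraries correlated from -0.15 to 0.16, so the numbers were not taken to pair them. The median of the 8 other members stayed between 0.03 and 0.10.

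Members near 0 changed sign in places, and the cause was not tested. Mxd1 was at 0.0034 when rescaled to the same total and 0.049 with array weights. Mxi1 was at -0.0055 with array weights, -0.078 with the trend removed, -0.024 with the length slope as a covariate, -0.016 without anti-CD22 replicates 1, 2 and 3, -0.0043 by edgeR and -0.0079 by DESeq2. Mnt was at -0.35 with the length slope as a covariate. Over single libraries left out Max ran from -0.12 to 0.14, Mxd1 from -0.10 to 0.11, Mxi1 from -0.035 to 0.045 and Mxd4 from -0.022 to 0.16. Mxd3 and Mnt had the lowest levels of the members, with means of 6.00 and 81.0 normalized counts over all libraries.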
